A study of Mus musculus with 44 samples.

Results

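The major urinary proteins (Mup) were followed in the liver through 10 genes chosen by name, Mup1, Mup2, Mup3, Mup7, Mup10, Mup11, Mup14, Mup17, Mup20 and Mup21, out of 54446 genes in the table of counts and out of 22 genes that the annotation calls Mup followed by a number. All 10 were found in the table. The livers came from 16 C57BL/6 male mice of 26 months, 8 fed a cyclic ketogenic diet (KD) since middle age and 8 fed a control diet (CD) throughout. In the cyclic regimen the KD and the CD take turns from week to week, and the tissue was taken in a week of CD feeding, so every animal was eating the CD when its liver was collected. KD livers carry the numbers 9 to 16 and CD livers the numbers 1 to 8, and the labels name no cage, batch or day. The comparison asks whether a year of cyclic KD left a lasting difference in the expression of these genes.

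Major urinary proteins are lipocalins, small secreted proteins folded as a barrel that holds a volatile molecule in its pocket. In the mouse they are made by hepatocytes, pass from the blood into the urine and release pheromones from scent marks, and Mup20, called darcin, is itself a pheromone by which females recognise and remember a male. Their transcription in the liver is driven by growth hormone pulses of the male type through the receptor Ghr, the kinase Jak2 and the transcription factor Stat5b. The genes form a cluster of near-identical copies in the middle, flanked by more divergent members that include Mup3, Mup20 and Mup21.

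All 10 members lie on the minus strand of chromosome 4 in GRCm38 and are annotated as protein-coding. Mup7 (60066469 to 60070475), Mup2 (60135932 to 60154289), Mup1 (60498012 to 60501960), Mup10 (60578260 to 60582199), Mup11 (60658466 to 60662411), Mup14 (61300023 to 61304000) and Mup17 (61591929 to 61595871) stand together in the cluster, and Mup20 (62050234 to 62054158), Mup3 (62083476 to 62087342) and Mup21 (62147932 to 62150863) lie beyond them. Coding sequences of these 7 clustered members were 98.34% to 99.44% identical to each other and are called near-identical copies here. Mup3 and Mup21 were 94.75% identical to each other, and Mup20 reached at most 91.34%, with Mup11. The first 90 coding bases, from the start codon, are shown for 6 members because they show how little separates the copies to which reads were assigned, with bases that do not match Mup1 in an alignment in capitals:
Mup1: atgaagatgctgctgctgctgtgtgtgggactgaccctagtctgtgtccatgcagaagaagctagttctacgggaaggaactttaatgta
Mup2: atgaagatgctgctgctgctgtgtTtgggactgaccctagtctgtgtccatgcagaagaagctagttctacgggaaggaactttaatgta
Mup14: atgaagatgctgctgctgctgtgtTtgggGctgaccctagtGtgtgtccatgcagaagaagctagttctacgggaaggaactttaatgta
Mup20: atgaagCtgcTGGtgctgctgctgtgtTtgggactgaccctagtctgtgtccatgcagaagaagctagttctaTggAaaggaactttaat
Mup3: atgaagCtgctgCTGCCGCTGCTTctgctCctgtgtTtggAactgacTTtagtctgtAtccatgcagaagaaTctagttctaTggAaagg
Mup21: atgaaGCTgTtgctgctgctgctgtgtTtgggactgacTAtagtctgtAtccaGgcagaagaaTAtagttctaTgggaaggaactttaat

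Over their whole coding sequences, Mup2 had 3 bases, Mup14 had 5, Mup20 had 51, Mup21 had 87 and Mup3 had 97 that did not match Mup1. The distance between the copies sets which values can be read alone. Of all windows of 100 bases along a transcript, 2.94% for Mup3, 4.50% for Mup21 and 38.8% for Mup20 also occurred in another Mup transcript, against 59.4% for Mup17 and 96.7% for Mup2 at the ends of the range for the near-identical copies. How the authors' counting assigned a read that fits several copies is not given in the sources used here. Mup19 and Mup22, which are not among the 10 and in which all such windows were shared, still held counts, 39 to 561 and 97 to 595 in KD livers and 0 to 651 and 1 to 588 in CD livers. Values of single near-identical copies are therefore uncertain. The sum of these 7 and the sum of all 10 do not depend on how reads were split among the copies summed. Both would be too low if reads that fit several copies were dropped, which was not tested. Mup3 and Mup21 depend least on shared reads, and Mup20 more than they do.

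Promoters from RefSeq (GRCm38.p6) were matched for 8 of the 10 members, all except Mup1 and Mup20. Mup3 and Mup21, whose coding sequences are the closest pair among the divergent members, were 89.06% identical over the stretch of promoter before the RefSeq gene start. The last 120 of these bases are shown for this pair (Mup3, chr4:62087318-62087437, and Mup21, chr4:62150842-62150961, both minus strand), with a run TATATAA in capitals:
Mup3: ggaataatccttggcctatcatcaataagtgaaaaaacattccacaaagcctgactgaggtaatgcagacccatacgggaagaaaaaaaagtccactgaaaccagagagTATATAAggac
Mup21: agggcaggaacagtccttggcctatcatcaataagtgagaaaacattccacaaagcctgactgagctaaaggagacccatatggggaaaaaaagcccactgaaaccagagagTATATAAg

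The run TATATAA, looked for on both strands after these promoters had been read, was found in 5 of the 8 members (Mup2, Mup3, Mup10, Mup17 and Mup21), and 3.041% of 32817 promoters of the same length held it. It began 27 and 25 bases before the RefSeq gene start in Mup2 and Mup17, and 11 and 8 in Mup3 and Mup21. In each of these genes the RefSeq start lay inside the gene span given above. For Mup2 the whole window, bases 60139857 to 60140106, lay inside that span. The Mup11 window ended at its RefSeq start, where the matching stretch of Mup2 and Mup17 enters the run. Absence from a window therefore does not show that a member lacks the run. The letters TTCNNNGAA, the motif that STAT5 proteins recognise, were found in 0 of the 8 and in 7.015% of all promoters. TATAAA was found in 0 of the 8 and in 12.372% of all, CCAAT in 4 and in 33.833%, and AGAACA, a motif of the glucocorticoid receptor, in 2 (Mup3 and Mup21) and in 16.08%. These letters are a description of the windows alone.

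Total counts ranged from 6879726 to 11786410 in KD livers and from 8090281 to 12682087 in CD livers. Some libraries stood apart in genes other than Mup. The summed level of 14 Kupffer cell markers was at most 3904 CPM (counts scaled by library size and TMM) in KD livers, in KD liver 12, against 7240 to 7734 CPM in CD livers 3, 5, 6 and 7, which were high in transcripts of neutrophils and macrophages. A different set of 6 libraries, KD livers 10, 11, 14, 15 and 16 and CD liver 1, had 1.23% to 2.39% of their counts in the predicted gene Gm10800, against at most 0.0058% in the other 10, and had counts in 42868 to 47702 genes against 25030 to 28259. The source of these extra counts was not tested. The summed level of 24 hepatocyte markers was at least 32480 CPM in every liver, and none of the 24 was at 0 in all livers of a diet.

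Taken per kilobase of exon, the counts of Mup3 and Mup20 were far above the rest. Their windows of 100 bases were shared less than those of the near-identical copies, and the effect on these levels was not tested. Exon length is the union over all transcripts, 1584 bases for Mup1 and 928 for Mup20, where the transcripts compared have 797 and 928. The median level of Mup3 was 1825 CPM per kilobase in KD livers and 1231 in CD livers, and that of Mup20 was 1164 in KD livers and 1406 in CD livers. The order of this pair was not settled, since Mup3 exceeded Mup20 in 5 of 8 KD livers and 4 of 8 CD livers. Mup20 exceeded Mup7, the next gene, in all 8 livers of each diet. Mup7, Mup21, Mup11 and Mup14 followed with medians of 26.1 to 50.6 CPM per kilobase in KD livers and 26.3 to 73.0 in CD livers, and each neighbour in this order lay above the next in some livers and below it in others. Mup17 had 10.5 CPM per kilobase in KD livers and 4.85 in CD livers, Mup1 had 2.22 in KD livers and 2.79 in CD livers, Mup2 had 1.62 in KD livers and 1.15 in CD livers, and Mup10 was lowest at 0.192 in KD livers and 0.199 in CD livers.

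Mup20, which encodes darcin, had 811 CPM in the lowest KD liver, a median of 1080 CPM and 2280 CPM in the highest KD liver, against 4.95, 1305 and 2465 CPM in CD livers. The KD livers stayed within a 2.81-fold range, while the CD livers ran over a 499-fold range. CD livers 3, 6 and 7 had 4.95, 101.2 and 390.8 CPM and lay below every KD liver, and CD liver 2 lay above every KD liver. The remaining 4 CD livers lay inside the KD range.

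Mup3, a divergent member that carries most of the counts with Mup20, had 333 CPM in the lowest KD liver, a median of 1950 CPM and 3489 CPM in the highest, against 7.52, 1315 and 3166 CPM in CD livers. KD livers 9 and 10 were the lowest of their diet, at 429 and 333 CPM. CD livers 3, 5, 6 and 7 had 7.52, 251, 17.5 and 232 CPM and lay below all KD livers, and the other 4 CD livers, at 2379 to 3166 CPM, were inside the KD range. Both diets therefore held livers of high and of low Mup3, and the lowest values were in CD livers.

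Mup21, the closest relative of Mup3, was less abundant, with 2.22, 28.3 and 104 CPM as the lowest, median and highest KD values and 0.264, 45.4 and 175 CPM in CD livers. CD livers 2, 4 and 8 exceeded every KD liver, and CD livers 3, 6 and 7 were below every KD liver. The lowest KD values, 2.33 and 2.22 CPM, were again those of KD livers 9 and 10. The ratio of Mup3 to Mup21 counts ran from 25.5 to 184 in KD livers, with a median of 68.7, and from 15 to 108 in CD livers, with a median of 29.8; its difference between diets was not tested.

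**Figure D1:**
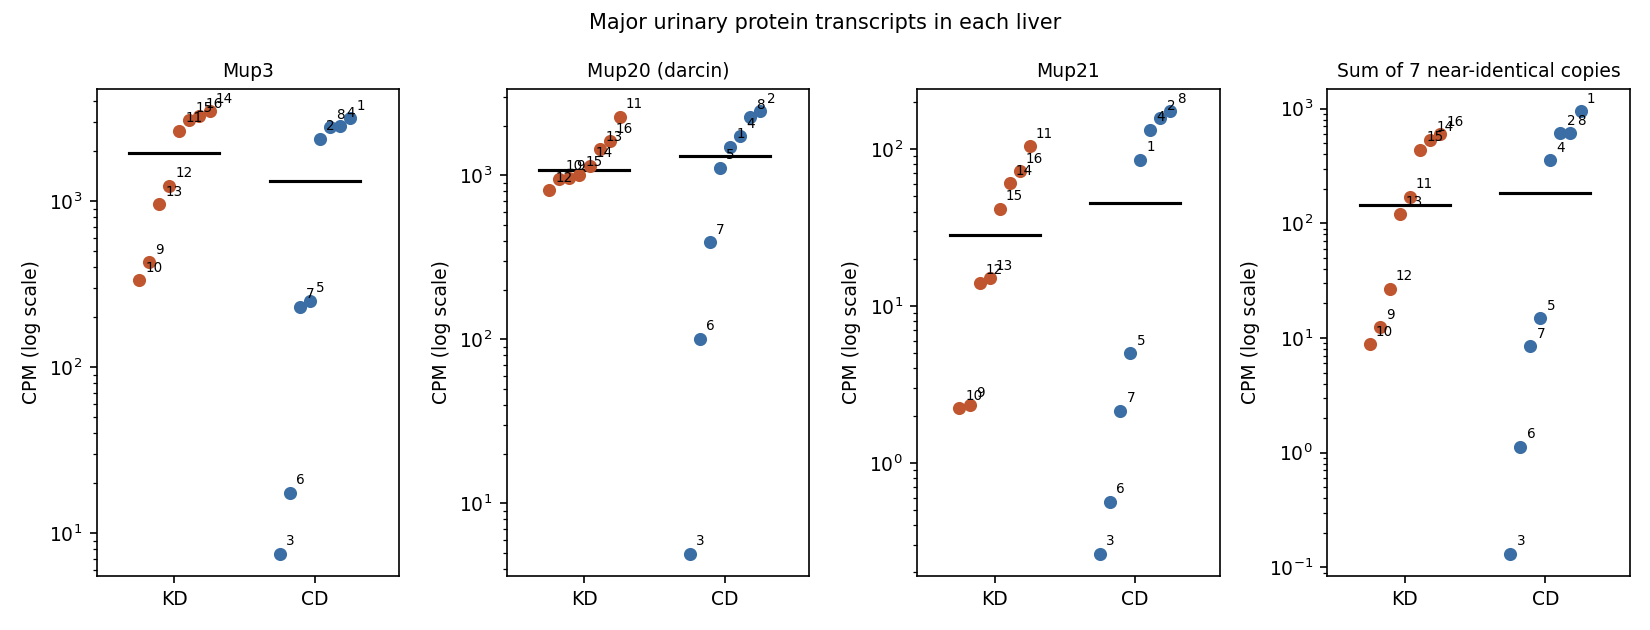
Levels of Mup3, Mup20, Mup21 and the sum of 7 near-identical copies in each liver, in CPM on a logarithmic axis, with KD livers on the left and CD livers on the right of each panel. Points are livers, small numbers are their labels and black lines are medians. CD livers 3 and 6 are at the bottom of every panel, and the KD values of Mup20 lie in a narrow band of 811 to 2280 CPM.

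By the deposited counts the near-identical copies were low beside Mup3 and Mup20, with the limit on shared reads given above, and varied most. Their sum was 8.80 CPM in the lowest KD liver, 145 CPM at the median and 599 CPM in the highest, against 0.132, 184 and 952 CPM in CD livers. KD livers 9, 10 and 12 had 12.4, 8.80 and 26.9 CPM, and CD livers 3, 5, 6 and 7 had 0.132, 15, 1.13 and 8.51 CPM. The highest values were split between the diets, with 439 to 599 CPM in KD livers 14, 15 and 16 and 608 to 952 CPM in CD livers 1, 2 and 8. Each diet thus held livers above 400 CPM and livers below 30 CPM.

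Mup7 had the largest median of the near-identical copies, with 0.708, 52.3 and 244 CPM as the lowest, median and highest KD values and 0.132, 75.4 and 325 CPM in CD livers. Mup11 came next with 1.62, 41.6 and 247 CPM in KD livers and 0, 62.5 and 408 CPM in CD livers. Mup14 had 1.72, 36.1 and 90.2 CPM in KD livers and 0, 36.4 and 106 CPM in CD livers. The diets overlapped for all 3, and CD liver 1 was above every KD liver for each.

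Mup17 had 1.77, 9.74 and 41.2 CPM in KD livers and 0, 4.49 and 78.9 CPM in CD livers. Mup1, whose protein is known in mice to circulate and to affect glucose metabolism, was given 0.241, 3.52 and 25.4 CPM in KD livers and 0, 4.42 and 23.5 CPM in CD livers. Mup2 reached 11.3 CPM in KD livers and 10.2 CPM in CD livers. Mup10 had 0 to 8 counts in KD livers and 0 to 24 counts in CD livers. CD liver 3 had 0 counts of Mup1, Mup2, Mup10, Mup11, Mup14 and Mup17, where 3 counts would equal 0.198 CPM, while Mup3 still had 114 counts and Mup20 had 75 in this liver. Intervals and limits of this kind cover counting error only.

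**Figure D2:**
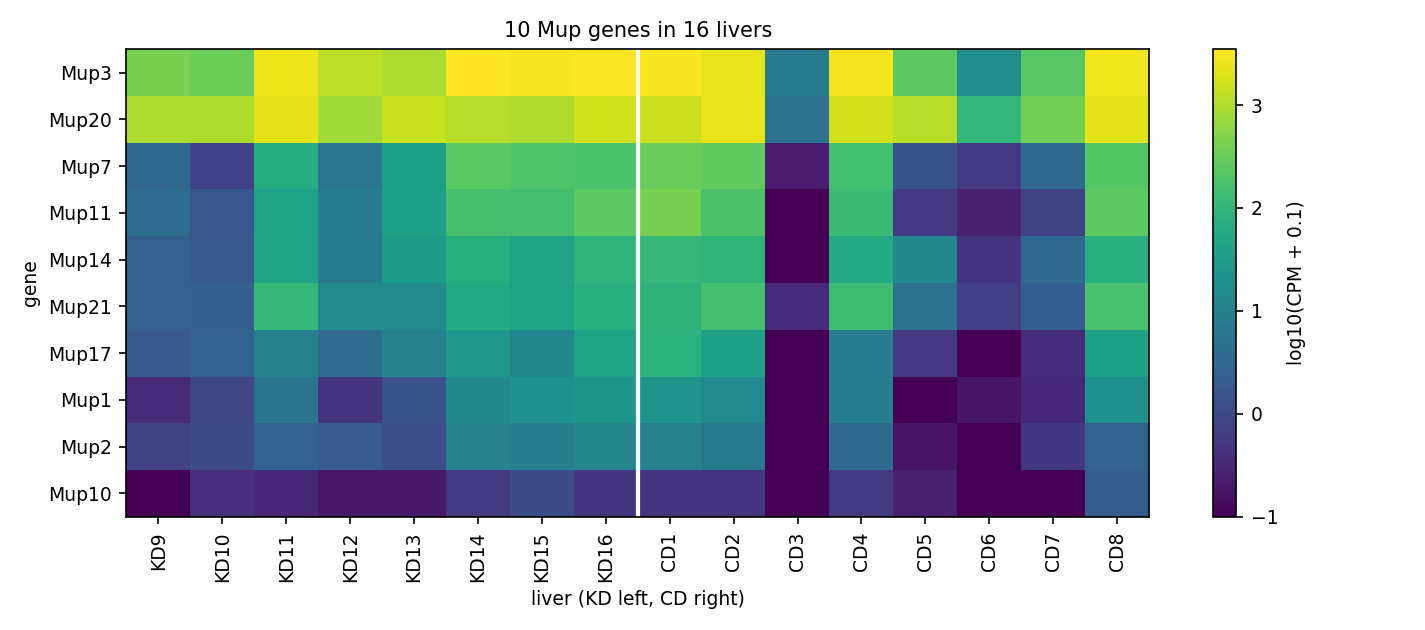
Heat map of the 10 Mup genes (rows, from the highest to the lowest median) in 16 livers (columns, KD left of the white line and CD right of it), coloured by log10 of CPM plus 0.1. The dark columns are CD livers 3 and 6, followed by CD livers 5 and 7 and KD livers 9, 10 and 12, in which Mup20 in the second row kept 811 CPM or more in the KD livers.

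The sum of all 10 genes had 1301, 3550 and 5550 CPM as the lowest, median and highest KD values, against 12.9, 3235 and 5836 CPM in CD livers. KD livers differed by 4.27-fold between the extremes and CD livers by 454-fold. CD livers 3, 6 and 7 had 12.9, 120 and 633 CPM and were below every KD liver, CD livers 1, 2 and 8 had 5697, 5611 and 5836 CPM and were above every KD liver, and CD livers 4 and 5 lay inside the KD range. The CD group was thus spread out on both sides of the KD group. As a share of all counts, the sum made up 0.148% to 0.502% in KD livers and 0.00154% to 0.540% in CD livers. In bulk tissue fewer hepatocytes and less Mup RNA per hepatocyte cannot be told apart from such values alone.

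No Mup gene passed the test between KD and CD. The quasi-likelihood F test of edgeR, with Benjamini-Hochberg adjustment over 18002 genes, tested 9 members, since Mup10 failed the filter on low counts, and called 0 of them at an adjusted p under 0.05. Across all genes it called 0 as well (0.0%), limma called 0 (0.0%) and DESeq2 called 177 (0.983%), none of them a Mup gene of the 10. Leaving out CD liver 1 gave edgeR 117 calls, 103 higher and 14 lower in KD, and leaving out CD liver 4 gave 1. Again no Mup gene of the 10 was among them. CD liver 1 was the only CD liver high in Gm10800, so without it all libraries high in Gm10800 were KD livers. The part of this in the 117 calls was not tested. At an unadjusted p under 0.05, edgeR counted 0 of the 9 members, against 2792 of 18002 genes (15.5%). Adjusted p-values of the members lay between 0.711 and 0.992. The diets overlapped for every member, and 12 of 18002 genes (0.0667%) had diets that did not overlap.

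Estimates were small beside their errors. The log2 fold change of KD over CD was 0.09 for Mup20 (SE 0.71, adjusted p = 0.953), 0.40 for Mup3 (SE 0.93, adjusted p = 0.835) and -0.85 for Mup21 (SE 1.10, adjusted p = 0.711) in the edgeR test. Among the near-identical copies it ran between -0.64 for Mup17 and 0.68 for Mup2. Of the 9 members, 5 were below 0, and 44.2% of all genes tested were below 0. The sum of 10 had a log2 fold change of 0.19 (SE 0.81) with a 95% interval of -1.51 to 1.90, and the sum of the 7 near-identical copies had -0.41 (SE 1.24) with an interval of -3.04 to 2.22. An interval this wide does not show that the diets gave equal levels, as it holds both a fall and a rise of the sum by more than 1 on the log2 scale.

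The width came from the spread between livers of 1 diet. The median SE of the 9 members was 1.10, against 0.233 for all genes tested, and 96.1% of genes had a smaller SE than Mup20, the member with the smallest. On the log2 scale, the SD of the sum of 10 was 0.88 among KD livers and 3.25 among CD livers, against medians of 0.34 and 0.53 over all genes in these diets. For Mup20 the SD was 0.49 in KD livers and 3.09 in CD livers. The 2 values of a gene were not tested against each other.

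The direction of these estimates depended on which livers entered. Without CD livers 3, 5, 6 and 7, all 9 members had a log2 fold change below 0, with a median of -1.23, and the sum of 10 had -0.69 (SE 0.38). Mup20 (-0.66, SE 0.26), Mup21 (-1.85, SE 0.78) and Mup17 (-1.67, SE 0.73) then had an unadjusted p under 0.05, 3 of 9 members against 15.7% of all genes, and the lowest adjusted p of a member by edgeR was 0.301, so none was called. These 4 livers had been set aside for their inflammatory genes, and they were also the 4 CD livers with the lowest sum of 10, so their removal raises the CD level by construction. Without the 6 libraries high in Gm10800, which leaves 3 KD and 7 CD livers, the 9 members were again below 0, with a median of -1.42 and a lowest adjusted p of 0.997. The 3 KD livers left, with 1407 to 2532 CPM in the sum of 10, were among the 4 lowest KD livers, and the 4 highest KD livers were all left out, so this removal lowers the KD level by construction. Under limma with sample quality weights only 1 of the 9 was below 0 and the median was 0.88.

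**Figure D3:**
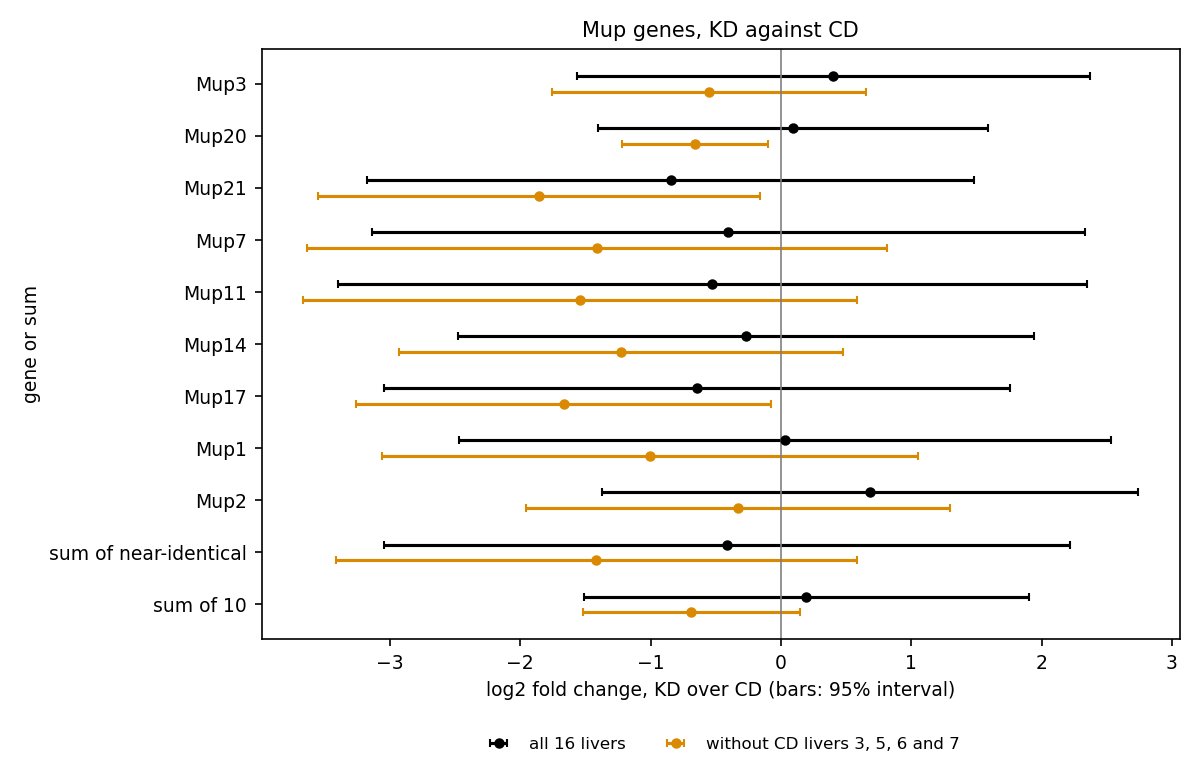
Log2 fold changes of KD over CD for the 9 tested Mup genes, the sum of 7 near-identical copies and the sum of 10, from edgeR, with 95% intervals as bars. Black points use all 16 livers and orange points leave out CD livers 3, 5, 6 and 7; all black intervals hold 0, and each orange point lies to the left of its black point.

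The mixture of Mup transcripts varied between livers of both diets. Mup20 made up 22% to 73.5% of the counts of the 10 genes in KD livers, with a median of 41.2%, and 26.2% to 84.0% in CD livers, with a median of 41.4%. Mup3 made up 25.6% to 67.3% in KD livers and 14.5% to 58.5% in CD livers. The 7 near-identical copies made up 5.18% ± 4.38 in KD livers and 6.16% ± 6.03 in CD livers (SD, n = 8 each), a difference of -0.98 points (exact two-sided permutation test over 12870 splits, p = 0.694). Without CD livers 3, 5, 6 and 7, which had the 4 lowest CD shares, the difference was -6.05 points (exact permutation test, p = 0.0444). This removal raises the CD share by construction. Without CD liver 1, which had the highest CD share, the difference was 0.53 points. Shares do not depend on the scaling of libraries, but they do depend on how shared reads were counted.

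Livers with little Mup RNA were mostly livers in which darcin made up most of it. Mup20 took 73.5%, 68.5% and 56.9% in KD livers 10, 9 and 13 and 84.0%, 80.5% and 61.7% in CD livers 6, 5 and 7, and these 6 livers, with CD liver 3 and KD liver 12, were the 8 lowest in the sum of 10. CD liver 3, the lowest of all, had 38.5%, and KD liver 12 had 38.7%. The ratio of Mup20 to the near-identical copies spanned 2.15 to 109 in KD livers and 1.57 to 89.6 in CD livers. It was 77.4, 109 and 30.2 in KD livers 9, 10 and 12 and 37.5, 74.5, 89.6 and 45.9 in CD livers 3, 5, 6 and 7, and at most 13.4 in each of the other 9 livers. A high ratio was thus found in both diets, in 3 KD livers and 4 CD livers.

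**Figure D4:**
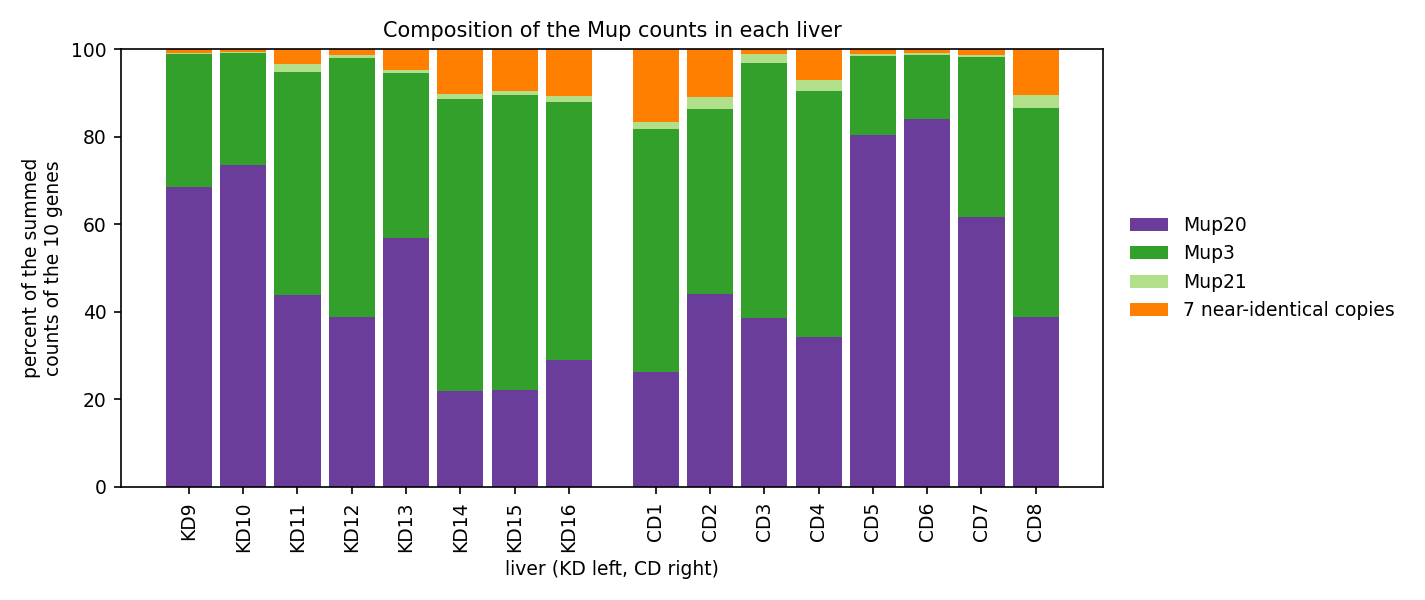
Composition of the summed counts of the 10 Mup genes in each liver, KD livers on the left and CD livers on the right, with Mup20, Mup3, Mup21 and the 7 near-identical copies stacked to 100%. The near-identical share reaches 10.8% in KD livers and 16.7% in CD livers and is below 2% in KD livers 9, 10 and 12 and CD livers 3, 5, 6 and 7.

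Across the 16 livers the levels of the members were ordered alike. Spearman's rho of log2 CPM was 0.77 to 0.98 over the 21 pairs of near-identical copies, with a median of 0.93, and 0.66 to 0.95 over the 9 pairs that include Mup20, with a median of 0.76. Near-identical copies may share reads, and all pairs share libraries and their scaling, so these values are a description.

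Of the 8 livers lowest in the sum of 10, 7 were also the 7 lowest in the summed hepatocyte markers, while KD liver 13 had the highest hepatocyte sum of all, 85329 CPM. The 24 hepatocyte markers, among them albumin (Alb), transthyretin (Ttr) and Cps1, the first enzyme of the urea cycle, summed to 47610 to 85329 CPM in KD livers and 32480 to 82338 CPM in CD livers, a 2.63-fold range over all 16. Per 1000 CPM of these markers, the 10 Mup genes had 24.2 to 77.7 CPM in KD livers, with a median of 46.4, and 0.396 to 81.5 CPM in CD livers, with a median of 53.8. CD livers 3, 6 and 7 had 0.396, 3.41 and 14 CPM and were again below every KD liver, while CD liver 5 with 39.5 CPM was inside the KD range. For Mup20 alone, CD liver 5 had 31.8 CPM per 1000, close to the highest KD value of 34.0. Between the diets, 23 of the 24 hepatocyte markers had a log2 fold change above 0 with a median of 0.28, and none was called. Over all genes tested, 44.2% were below 0. Alb had 0.32 (SE 0.26, adjusted p = 0.547 by edgeR).

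Markers of immune cells moved the other way from the Mup genes. The 14 Kupffer cell markers summed to 521 to 3904 CPM in KD livers and 557 to 7734 CPM in CD livers, and their rho with the sum of 10 was -0.79 over the 16 livers, -0.86 within KD and -0.71 within CD. The 13 neutrophil markers summed to 20.9 to 81.6 CPM in KD livers and 13.5 to 2010 CPM in CD livers, with CD livers 3 and 6 at 2010 and 1983 CPM (rho -0.84, -0.48 within KD and -0.88 within CD). None of the 13 and none of the 14 was at 0 in all livers of a diet. The 14 markers of monocytes and macrophages gave -0.88, the 12 of stellate cells and fibroblasts -0.76, the 11 of endothelium -0.73, the 11 of lymphocytes -0.65 and the 13 of bile ducts -0.53. All 8 tested neutrophil markers and 12 of 14 Kupffer markers were lower in KD at an unadjusted p under 0.05, none of them called. Over all genes, 1524 of 18002 were lower at such a p, and 0 of the 9 tested Mup genes had one. CD livers 1, 2, 4 and 8 had neutrophil sums of 22.6, 13.5, 19.5 and 18.1 CPM, below the KD median of 26.7 CPM. Their Kupffer sums of 601, 557, 1011 and 1726 CPM lay inside the KD range. The remaining CD livers had neutrophil sums of 205 CPM or more and Kupffer sums of 7240 CPM or more, above every KD liver. The share of mitochondrial counts also moved with the sum of 10 (rho 0.84), and the share of Gm10800 had a rho of 0.18. The Gm10800 share was either high or near 0, so this rho says little. The 4 KD livers highest in the sum of 10 were all high in Gm10800, as was KD liver 10, the lowest KD liver. Of the CD livers only CD liver 1 was high. The part of these cell types and library properties in the Mup values was not tested.

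**Figure D5:**
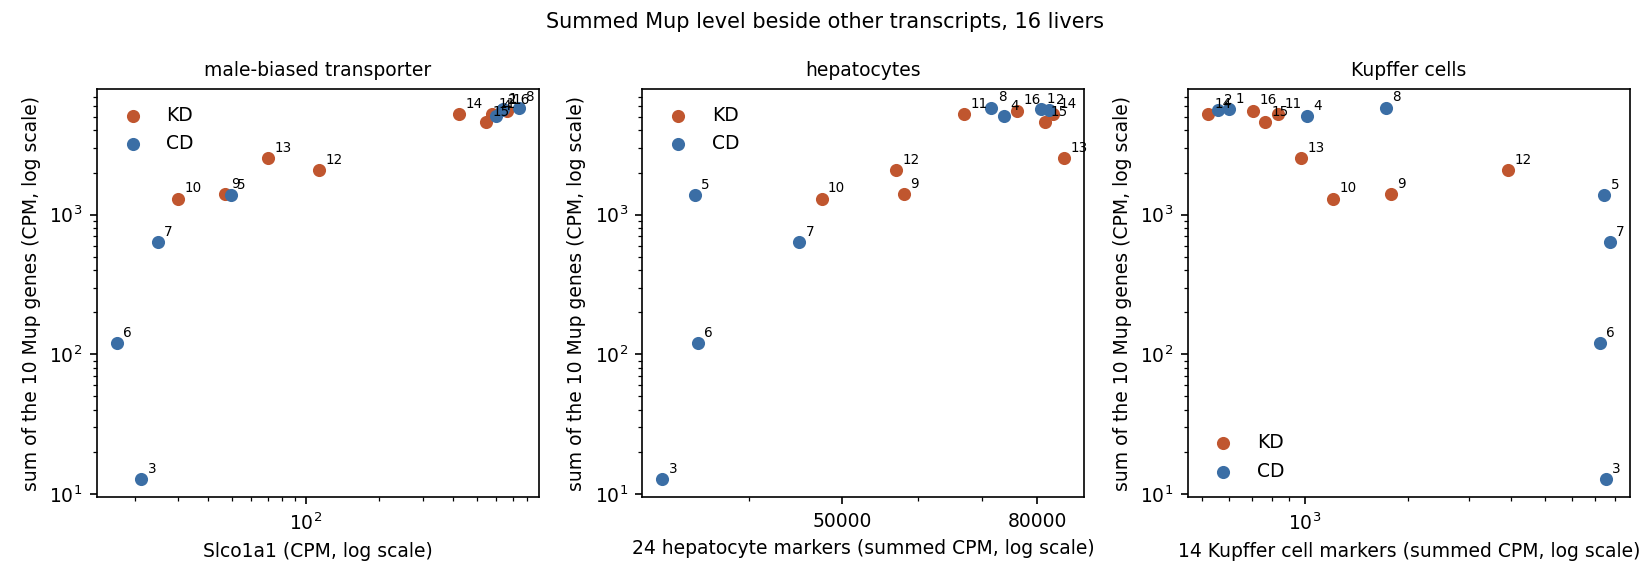
Sum of the 10 Mup genes in each liver (vertical axes, CPM, logarithmic) beside Slco1a1, the summed hepatocyte markers and the summed Kupffer cell markers (horizontal axes, CPM, logarithmic). Points are livers with their numbers, orange for KD and blue for CD; CD livers 3 and 6, at 12.9 and 120 CPM of the sum, lie far below the other livers in each panel, while the hepatocyte axis spans only 2.63-fold.

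Genes of the male liver had a positive rho with the Mup genes, as did most hepatocyte markers. Of 20 genes known for higher expression in male than in female mouse liver, all 20 had a rho above 0 with the sum of 10, with a median of 0.87, against a median of 0.03 over 13120 protein-coding genes. Slco1a1, a transporter of organic anions, had a rho of 0.96, the fatty acid elongase Elovl3 0.94, Cyp4a12b and Cyp4a12a, which hydroxylate fatty acids, 0.92 and 0.89, the steroid hydroxylase Cyp2d9 0.90, and Hsd3b5 and Cyp7b1, which act on steroids and oxysterols, 0.87 each. The lowest of the list was C6, a complement component, at 0.53. The summed level of the list ran from 872 to 5075 CPM in KD livers and from 375 to 6100 CPM in CD livers. Of the 24 hepatocyte markers, 22 had a rho above 0, with a median of 0.79, and the lists were not tested against each other. These rho values share the 16 libraries and the scaling, and are given with no test.

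Between the diets, none of the 20 male-biased genes was called. None had an unadjusted p under 0.05, while 15.5% of all genes had one. Of the 20, 6 were above 0, and the median log2 fold change was -0.13, against 0.04 over all genes tested. The 3 with the smallest p were Cspg5 at 1.03 (SE 0.75), Selenbp2 at -0.78 (SE 0.62) and Capn8 at -0.68 (SE 0.69), with adjusted p of 0.50, 0.545 and 0.637 by edgeR. Hsd3b5, picked after its values were seen, was under 1 CPM in some livers of each diet. Hsd3b5 had 82.4 CPM in KD liver 11 and 52.9 to 114 CPM in KD livers 14 to 16 but under 1 CPM in KD livers 9, 10, 12 and 13, and it had 96.6 to 182 CPM in CD livers 1, 2, 4 and 8 but under 1 CPM in CD livers 3, 5, 6 and 7. Slco1a1 and Cyp2d9 stayed at or above 30.1 and 76.6 CPM in every KD liver and at or above 17 and 39.6 CPM in every CD liver.

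Of 24 genes known for higher expression in female liver, 14 were tested and 5 had a rho above 0 with the sum of 10, with a median of -0.33. Within KD livers 3 of the 14 had a rho above 0, namely Cyp2b10 (0.71), Cyp2c69 (0.38) and Cyp2c40 (0.17), and it was negative for Cyp2a4 (-0.57), Cyp2b9 (-0.62) and Cyp2b13 (-0.62), which like those 3 are cytochromes P450. Cyp2b9 had 2.63, 136 and 365 CPM as the lowest, median and highest KD values and 2.28, 7.47 and 136 CPM in CD livers (log2 fold change 2.38, SE 1.04, adjusted p = 0.306 by edgeR). Cyp2b13 had 2.98 (SE 0.91, adjusted p = 0.291) and Fmo4, a flavin monooxygenase, 0.62 (SE 0.26, adjusted p = 0.301). Cyp2b9, Cyp2b13 and Fmo4 were the tested members with an unadjusted p under 0.05, all higher in KD, and none was called. Over all genes, 1268 of 18002 were higher at such a p. The median of the 14 was 0.38.

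Genes of the growth hormone pathway differed in how closely they followed the Mup genes. Ghr, the growth hormone receptor, had a rho of 0.87 with the sum of 10, Igfals, which stabilises circulating IGF-1, 0.79, Stat5b 0.77, the transcription factor Zhx2 0.74 and Igf1 0.73. Within KD and within CD, Stat5b had 0.31 and 0.90, and Ghr had 0.81 and 0.79. Igfals had 0.76 within each diet, Zhx2 had 0.67 and 0.79, and Igf1 had 0.57 and 0.76. Over the 16 livers Jak2 had -0.84 and the inhibitor Socs3 -0.79. Cish and Socs2, feedback inhibitors that STAT5 induces, had -0.25 and -0.24. Of 24 genes of this list, 13 had a rho above 0 and the median was 0.23.

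Between the diets, the same list had 24 tested genes with 0 called and a median of 0.06. At an unadjusted p under 0.05, 1 was higher and 1 was lower, while 15.5% of all genes had such a p. Cish had 4.17, 26.5 and 66.3 CPM as the lowest, median and highest KD values and 3.81, 9.49 and 16.0 CPM in CD livers (1.36, SE 0.48, adjusted p = 0.295 by edgeR). Socs2 had 14.9, 57.6 and 140 CPM in KD livers and 12.0, 27.9 and 61.1 CPM in CD livers (0.96, SE 0.46, adjusted p = 0.326). Ptpn6, a phosphatase of immune cells that also acts on growth hormone signalling, had -1.47 (SE 0.56, adjusted p = 0.295). The log2 fold change was 0.34 for Ghr, 0.10 for Stat5b and 0.02 for Igf1.

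Other lists of liver proteins were compared with the Mup genes in the same way. Among other lipocalins and related carriers, Rbp4, which carries retinol, and C8g, a complement component, had a rho of 0.90 each with the sum of 10, and Lcn2, a lipocalin of the acute phase and of neutrophils, had -0.83. The acute-phase carriers Orm1, Orm2 and Orm3 had -0.38, -0.57 and -0.49. Of the 10 tested genes of this list 6 were above 0, with a median of 0.57, and 0 were called between the diets; Ptgds had 1.53 (SE 0.59), Lcn2 -1.88 (SE 1.20) and Fabp1 0.54 (SE 0.55), with adjusted p of 0.295, 0.448 and 0.638 by edgeR.

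Of 23 chaperones and stress genes of the endoplasmic reticulum, through which secreted proteins pass, 20 had a rho above 0, with a median of 0.77, and between diets 0 were called, with a median of -0.04. The 3 with the smallest p were Ddit3 at -0.37 (SE 0.17), Ern1 at 0.29 (SE 0.20) and Atf4 at 0.19 (SE 0.14), with adjusted p of 0.314, 0.477 and 0.508 by edgeR. All 10 genes of gluconeogenesis had a rho above 0, with a median of 0.74. Pck1 and Tat of this list are also hepatocyte markers, of which 23 of 24 had a log2 fold change above 0. In the gluconeogenesis list 0 were called. All 10 had a log2 fold change above 0, with a median of 0.23, while 44.2% of all genes tested were below 0. The 3 with the smallest p were Ppargc1a, a coactivator of this pathway (0.72, SE 0.27, adjusted p = 0.295), Fbp1 (0.37, SE 0.34, adjusted p = 0.609) and Foxo1 (0.12, SE 0.13, adjusted p = 0.662).

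Over 13120 protein-coding genes, the one most like the sum of 10 was the zinc finger gene Zfp982, with a rho of 0.97 over the 16 livers and 0.93 within each diet. Slco1a1 came next, followed by Ephx2 (soluble epoxide hydrolase), Hdhd3 and Pex16 (peroxisome assembly) at 0.96 each, and Bahcc1, Mrps24 (mitochondrial ribosome), Pccb (propionyl-CoA carboxylase) and Tcea3 at 0.95 each, with Acnat1, a peroxisomal acyltransferase, also at 0.95. The most opposite were Stard9 at -0.96, Bcl2l11, which promotes apoptosis, at -0.95, and the collagen Col1a1, Arrdc4 and A4galt at -0.94 each. For Zfp982 the log2 fold change between the diets was 0.04 and for Slco1a1 -0.14.

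The 12 other Mup genes of the annotation added little. Together they had 13.2 to 226 CPM in KD livers and 0.0807 to 237 CPM in CD livers, led by Mup22 and Mup19. With them the sum of 22 had a log2 fold change of 0.20 (SE 0.81). Mup4, Mup5 and Mup6, which are divergent members, had 13 to 47 counts together in the 6 libraries high in Gm10800 and 0 to 2 counts in the other 10, which gives the scale of extra counts in those libraries and touches low values such as those of KD liver 10. Of 27 Mup pseudogenes 20 had a count in a liver, with 1 to 189 counts in all per liver. In 28 brain libraries of the same series the 10 genes had 0 to 40 counts together, at most 4.13 CPM of total counts, against 15.4 to 5401 CPM of total counts in the livers.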

How the data were processed

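Ribosomal RNA was removed before library preparation. Per the labels and the study's methods, the authors trimmed reads with Trimmomatic, aligned them to GRCm38 with STAR and made the matrix with RSEM; the deposited values are whole-number counts per gene, not normalized. GENCODE vM21 gave symbols to 54409 of 54446 identifiers. The 16 livers (8 KD, 8 CD) were tested in edgeR 4.0.16 (R 4.3.3; filterByExpr, TMM, quasi-likelihood F test, Benjamini-Hochberg adjustment, calls under 0.05). Sums got estimates without p-values. Near-identical copies were joined at 95% identity of coding sequences in place of the proteins planned. Likeness is Spearman's rho of log2 CPM (genes with a mean above 1). Named genes are the members, the 10 genes most like their sum, the 5 most opposite and the 3 smallest p-values of each pathway list; markers and list genes named for their rho, and genes in single livers, were picked after their values were seen. Members and lists were chosen with earlier results of these data known. Alternatives were DESeq2 1.42.0, limma 3.58.1 with voom weights, RLE, total-count and hepatocyte scaling, other filters, robust dispersion and left-out livers. The fit was tested on simulated data. The labels only number the livers, so p-values measure the spread between these samples, and the models hold no batch.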

Additional observations from a re-analysis of the deposited data

Results flagged for a closer look

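Among 44 sets of 8 values, each a level (as log2 CPM) or share (in percent) of a Mup gene in 1 diet, a single liver was far from the others in 1 set. Mup10 made up 0.0361% of the counts of the 10 genes in CD liver 8, with 24 counts, the highest of the CD livers, and the gap to the nearest CD liver was 0.686 of the whole range, above the limit that Dixon's test sets for 8 values. When the 24 sets of levels were also checked in CPM, a choice made after the data were seen, 1 was past the limit: Mup10 had 2.10 CPM in CD liver 8, and the next CD liver had 0.49 CPM. Chance flags about 1 in 20 such sets. Mup10 is a near-identical copy, so its counts depend on how shared reads were assigned.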

How the results depend on the processing

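No paired analysis was possible because KD livers carry the numbers 9 to 16 and CD livers 1 to 8, so no number is shared. The count of all genes called by edgeR, 0, became 177 with DESeq2. It lay between 0 and 117 when a liver was left out, with 117 without CD liver 1 and 1 without CD liver 4. Without CD liver 1, all libraries high in Gm10800 were KD livers, and the part of this in the 117 calls was not tested. No Mup gene of the 10 was called under any alternative run. The share of the near-identical copies differed by -0.98 points. Without CD livers 3, 5, 6 and 7 it differed by -6.05 points (exact permutation test, p = 0.0444). These had the 4 lowest CD shares, so their removal raises the CD share by construction. Set at 90% identity, the class also took in Mup20, and its median share was then 43.5% in KD livers and 52.0% in CD livers. This wider share differed by -7.64 points (exact permutation test, p = 0.388). Without the libraries high in Gm10800, the share of the 7 near-identical copies differed by -2.36 points (exact permutation test, p = 0.425). Leaving out a liver in turn gave -1.78 (without KD liver 16) to 0.53 points (without CD liver 1). Log2 fold changes of KD over CD that changed sign without CD livers 3, 5, 6 and 7 were -1.004 for Mup1, -0.33 for Mup2, -0.55 for Mup3 and -0.66 for Mup20, and the sum of 10 also changed sign, to -0.69. Without the libraries high in Gm10800 they were -3.19 for Mup1, -0.64 for Mup2, -0.49 for Mup3 and -0.12 for Mup20, and -0.42 for the sum of 10. With limma they were 0.35 for Mup7, 1.003 for Mup11, 0.23 for Mup14, 0.99 for Mup17 and 0.42 for the near-identical sum. Leaving out a liver in turn gave -0.47 to 0.44 for Mup1, -0.998 to 0.039 for Mup11, -0.61 to 0.016 for Mup14, -1.15 to 0.039 for Mup17, -0.10 to 0.33 for Mup20, 0.00017 to 0.38 for the sum of 10 and -0.77 to 0.03 for the near-identical sum. For Mup11, Mup14, Mup17 and the near-identical sum the value above 0 was the one without CD liver 1. The cause of these changes was not tested. Mup7, Mup21, Mup2 and Mup3 kept their sign when any 1 liver was left out. Near-identical copies at 0 to a few counts in the low livers limit what can be said of any single copy.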

Other observations

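Among the near-identical copies, CD liver 5 stood out after its values had been seen. Mup14 had 158 of the 191 near-identical counts there (82.7%), while it took 10.4% to 25.8% in KD livers, and 11.1% to 40.9% in the other CD livers with at least 80 near-identical counts. Mup11 had 6 counts in the same liver and Mup7 had 18. In KD liver 9, with 155 near-identical counts, Mup14 had 30 counts, Mup11 51 and Mup7 41.

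Mup9, outside the list of 10 and a near-identical copy, had 240 counts in CD liver 8, against 1 to 16 counts in KD livers, and Mup10 had its highest count, 24, in the same CD liver. KD liver 13 had the highest summed level of the hepatocyte markers and of the other lipocalins (6874 CPM), and had 2532 CPM of the sum of 10 and 70.2 CPM of Slco1a1, whereas the 8 livers with 4568 CPM or more of the sum had 423 to 742 CPM of Slco1a1.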
